A study of Mus musculus with 283 samples.

Results

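Normal mammary glands of BALB/c and FVB mice were compared across all genes. The glands were chosen by the model label, which read NML-BALBC for 5 libraries and NML-FVB for 4, so they made up 9 of the 283 samples of the series and 9 of the 264 libraries of its in vivo expression table. The rest of that table held mammary tumours of several mouse models, many of them from mice given antibodies against immune checkpoints. The source names gave the strain and mammary tissue and marked the glands as untreated, although the tissue field read tumor for every library. No age, sex, parity or oestrous stage was given, and no transgene or mutation was named for either strain. The names of BALB/c glands 4 and 5 and of FVB glands 3 and 4 carried the word pooledMAMM, and whether animals or glands were pooled was not stated. Values are the deposited signal, which the authors scaled so that the upper quartile of each library was the same, on a log2 scale after 1 was added. A difference of 1 is therefore 2-fold for well expressed genes and understates the change of low ones.

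A mouse mammary gland is a tree of ducts set in a pad of fat. Each duct has an inner layer of luminal cells, some of which sense hormones and some of which can make milk, and an outer layer of contractile basal cells. The pad holds white and some brown adipocytes, fibroblasts, vessels, macrophages and, in several gland pairs, a lymph node. A bulk library sums all of these, so fewer cells of a type and less RNA per cell cannot be told apart. BALB/c and FVB are inbred strains with different haplotypes of the major histocompatibility complex (MHC), the gene region that presents peptides to T cells. The BALB/c haplotype is called H2-d and the FVB haplotype H2-q.

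BALB/c gland 1 stood apart from the other 8. Its rank correlation with them across the tested genes was 0.777 to 0.878, against 0.905 to 0.995 among the others, and it alone came from its flow cell by the source names. Its B cell markers averaged 14.58, against 11.09 to 11.72 in BALB/c glands 2 to 5 and 8.05 to 11.72 in the FVB glands, and its T cell markers averaged 13.13. Its adipocyte markers averaged 12.78 against 15.16 to 16.50 in the other 8 glands, and its skeletal muscle markers averaged 3.82 against 8.50 to 16.16. The B cell gene Ms4a1, the follicular dendritic and B cell receptor gene Cr2 and the lymph node chemokine gene Ccl21a stood at 15.16, 14.91 and 16.42 in it. FVB gland 1 had the lowest lymphocyte levels, with a B cell mean of 8.05 and a T cell mean of 8.15. BALB/c glands 4 and 5 were the most alike, with a typical gene differing by 7.59 times the variance that read sampling gives, against 49.1 to 529 times for other BALB/c pairs, and they were kept as separate samples. All 69 called genes examined one by one were also called without BALB/c gland 1, with an adjusted p of at most 0.0288 by limma. Their differences were then 0.83 to 1.16 times those with it. Of the 69, Pcdhac2, chosen after its values were seen, had that highest adjusted p and is not described below. Its call was lost on omission of any 1 of 8 glands. Where leaving out BALB/c gland 1 changed the call of a gene described below, both values are given. For lists this was done only in part, and some lists not described below gained called members. The glutathione S-transferase list, for example, went from 1 to 4 called higher in BALB/c, and the fibroblast list from 1 to 3.

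**Figure D1:**
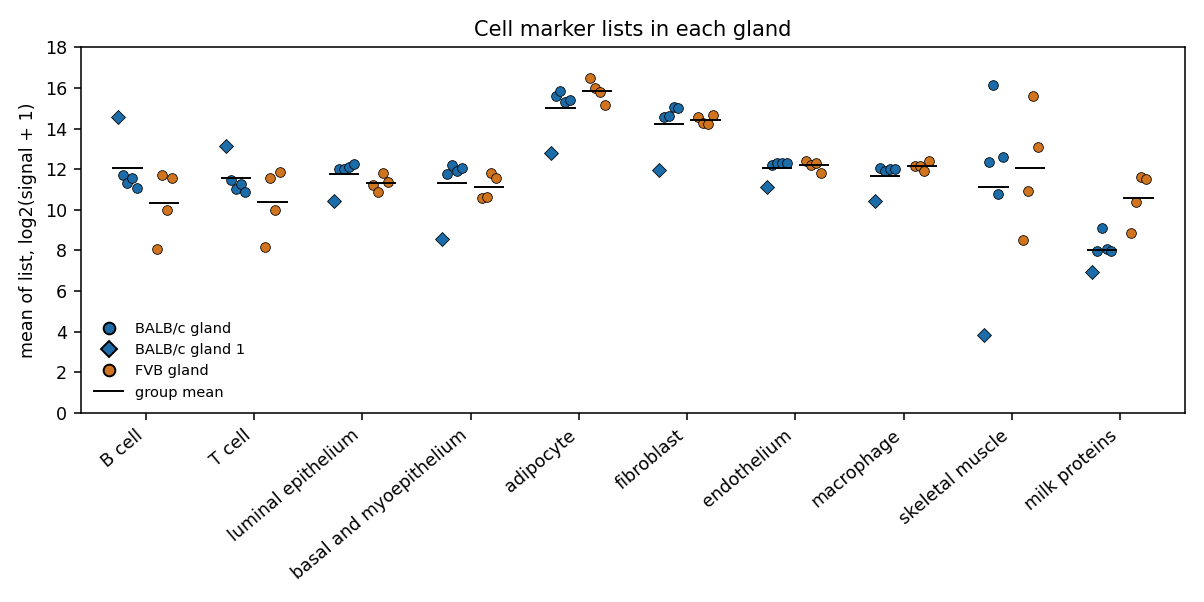
Mean log2(signal + 1) of 10 marker lists in each of the 9 glands, with BALB/c in blue, FVB in orange, BALB/c gland 1 as a diamond and a line at each group mean. BALB/c gland 1 is highest for B and T cells and lowest for the other lists shown, and skeletal muscle spans 3.82 to 16.16.

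Epithelial markers were present in every gland, including those of both duct layers. The luminal list averaged 10.43 in BALB/c gland 1, 11.98 to 12.24 in BALB/c glands 2 to 5 and 10.90 to 11.83 in the FVB glands. The basal list averaged 8.57 in BALB/c gland 1, 11.77 to 12.20 in the other 4 and 10.58 to 11.81 in FVB. This list also holds Acta1, the skeletal muscle actin described below, so muscle signal enters these means. Means without Acta1 were not taken. The adipocyte hormone gene Adipoq was between 13.70 and 17.27 in all 9. Of the 100 genes with the largest spread within strains, 14 were on the 14-gene skeletal muscle list. Acta1, the actin of skeletal muscle, ran from 3.26 to 18.18 in BALB/c and from 10.91 to 17.86 in FVB, and Ckm, muscle creatine kinase, from 0 to 17.90 and from 9.32 to 16.83. No muscle list member was called.

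Of 16438 genes tested with limma, 216 passed a Benjamini-Hochberg adjusted p of 0.05, which is 1.31% of those tested. Of these, 121 were higher in BALB/c (0.736%) and 95 were higher in FVB (0.578%), and 208 differed by at least 2-fold (1.27%). All 216 separated the strains with no overlap between any BALB/c and any FVB gland, and such separation held for 1455 genes, or 8.85% of all tested. Without BALB/c gland 1 the test called 639 genes (3.89%), 441 higher in BALB/c (2.68%) and 198 higher in FVB (1.2%), and the 216 were among them. Of the 639, 494 differed by at least 2-fold (3.01%). Over the omission of any 1 other gland the count ran from 86 to 147. BALB/c gland 1 was alone in its library set, so a term for the set also takes that gland out of the strain difference. The fit with that term is thus not a check separate from the fit without that gland. With a term for the library set 1083 genes were called (6.59%), again with all 216 among them, and 757 of the 1083 were higher in BALB/c (4.61%), 326 were higher in FVB (1.98%) and 629 differed by at least 2-fold (3.83%). Without both BALB/c gland 1 and FVB gland 1, a choice made after the data were seen, 369 were called (2.24%), 1.51% of genes higher in BALB/c and 0.73% higher in FVB, with 334 at 2-fold or more (2.03%). The median difference of all genes was 0.08, and rescaling by the median of ratios moved it to -0.04 and the split to 104 higher in BALB/c and 117 higher in FVB, while quantile normalization gave 111 and 130. The labels do not say that the glands came from separate mice, so p-values measure the spread between these libraries.

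**Figure D2:**
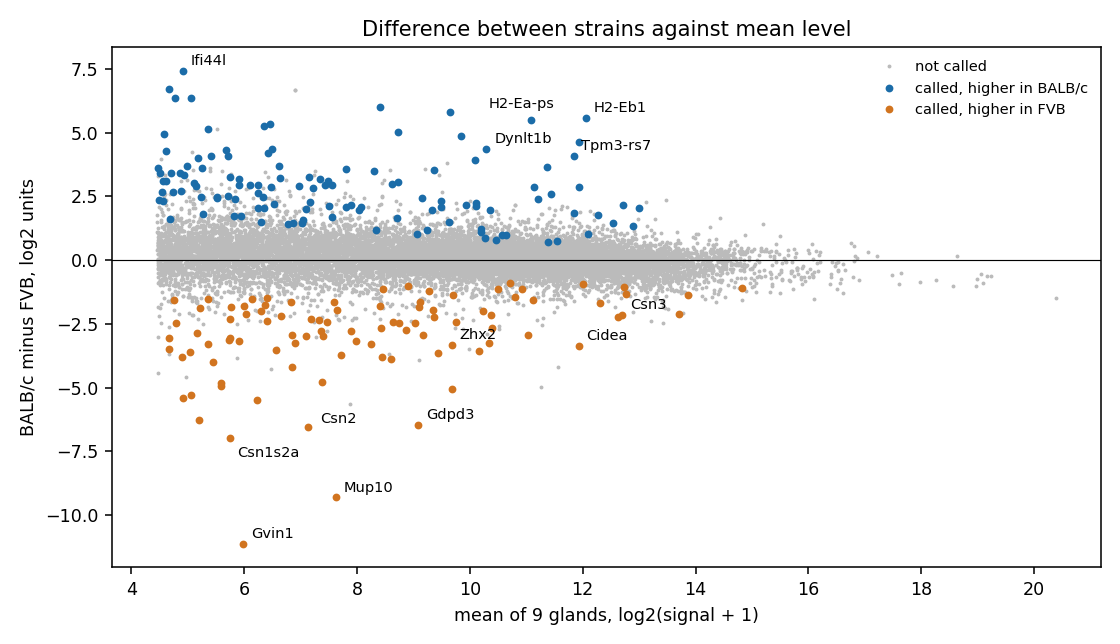
Difference between strains (BALB/c minus FVB, log2 units) against the mean of the 9 glands for the 16438 tested genes, with the 121 genes called higher in BALB/c in blue and the 95 called higher in FVB in orange. Gvin1 at -11.11 and Mup10 at -9.30 lie lowest, and Ifi44l at 7.41 lies highest.

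The MHC region on chromosome 17 held the 2 longest runs of neighbouring called genes. Class II molecules, which show peptides to helper T cells, are pairs of an alpha and a beta chain, and mice can make 2 kinds, called A and E. H2-Eb1, the E beta chain gene (chromosome 17, 34305867 to 34316674, GRCm38), stood at 16.28, 14.25, 14.33, 14.05 and 13.82 in BALB/c glands 1 to 5 and at 8.47, 9.57, 8.55 and 9.26 in FVB glands 1 to 4. Every BALB/c gland lay far above every FVB gland, and the difference was 5.58 ± 0.48 (SE, adjusted p = 0.000379 by limma). H2-Ea-ps, the E alpha chain gene, named as a pseudogene because it is silent in the reference strain, stood at 15.69, 13.37, 13.12, 12.85 and 12.60 in BALB/c and at 6.63, 8.92, 7.26 and 9.35 in FVB. It was 5.49 ± 0.73 higher in BALB/c (adjusted p = 0.00598 by limma). It is known that mice of the b, f, q and s haplotypes make no E alpha chain.

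The other class II genes did not follow the E chains. H2-Ab1, the A beta chain gene, stood at 16.11, 14.29, 14.37, 14.35 and 14.13 in BALB/c and at 13.49, 14.64, 13.50 and 14.36 in FVB. Its groups overlapped, with a difference of 0.65 ± 0.44 (adjusted p = 0.511) and of 0.29 ± 0.27 without BALB/c gland 1 (adjusted p = 0.631). H2-Eb1 was at 5.15 ± 0.26 (adjusted p = 3.49e-05) and H2-Ea-ps at 4.95 ± 0.56 (adjusted p = 0.00204) without that gland. These 2 were the only called members among the 12 class II genes tested, with and without that gland. Over all genes 0.736% were called higher in BALB/c with that gland and 2.68% without it. The median difference of the 12 was 1.13 with that gland and 0.53 without it, against 0.08 and 0.09 for all genes. The mean of the B cell list, whose cells also make class II, was higher in BALB/c gland 1 as given above. Its part in the class II values was not tested.

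Upstream of H2-Eb1 the RefSeq sequence of the reference strain carries the Y box, a motif of class II promoters that binds the factor NF-Y. It is shown because H2-Eb1 had the largest difference toward BALB/c among the called annotated genes above the median level. The 250 bases before its start (chr17:34305617-34305866, plus strand, GRCm38.p6) are given with the motif CTGATTGG in capitals, which begins 62 bases before the gene start.
H2-Eb1: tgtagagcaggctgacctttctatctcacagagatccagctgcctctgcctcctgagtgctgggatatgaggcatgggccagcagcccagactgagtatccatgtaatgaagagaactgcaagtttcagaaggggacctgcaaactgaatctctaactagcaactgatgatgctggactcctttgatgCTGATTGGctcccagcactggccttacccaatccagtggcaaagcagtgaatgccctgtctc
The motif, read on both strands, was present in 3.83% of 32851 windows of the same length before RefSeq gene starts. The window of the class II gene H2-Aa, not printed, also held 1 copy, which begins 51 bases before its start. The sequence is that of the reference strain, and those of BALB/c and FVB were not used here.

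Class I molecules show peptides to killer T cells. Of 14 classical and peptide-loading genes tested 0 were called by limma, with a median of 0.12, and without BALB/c gland 1 H2-D1 was the 1 called. H2-K1 stood at 16.29, 15.48, 15.69, 15.10 and 15.04 in BALB/c and at 16, 16.22, 15.74 and 15.85 in FVB, and the groups overlapped (difference -0.43 ± 0.29, adjusted p = 0.512). It was at -0.62 ± 0.20 without BALB/c gland 1 (adjusted p = 0.132 by limma). The library set term also takes out that gland, and under that term H2-K1 was called at -0.62 ± 0.13 (adjusted p = 0.0294 by limma). H2-D1 stood at 16.72, 16.48, 16.73, 16.43 and 16.39 in BALB/c and at 17.59, 17.52, 17.05 and 17.23 in FVB. Its groups did not overlap, but the difference of -0.80 ± 0.26 was not called (adjusted p = 0.226). It was called at -0.84 ± 0.19 without BALB/c gland 1 (adjusted p = 0.0439), and with the library set term the adjusted p was 0.0155.

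Of 17 nonclassical class I genes tested, 4 were called higher in BALB/c, against 0.736% of all genes, and 1 higher in FVB, against 0.578%, with a median of 0.97 against 0.08 for all genes. These counts were 5 and 2 without BALB/c gland 1, against 2.68% and 1.2% of all genes, with a median of 0.65 against 0.09. H2-T22, whose product is a ligand of gamma delta T cells, stood at 14.07, 13.24, 13.40, 12.69 and 12.59 in BALB/c and at 10.51, 10.63, 10.01 and 10.26 in FVB, with no overlap. Its difference was 2.85 ± 0.30 (adjusted p = 0.0014), and 2.63 ± 0.23 without BALB/c gland 1. H2-T23, which encodes the NK receptor ligand Qa-1, was 2.16 ± 0.38 higher in BALB/c (adjusted p = 0.026), H2-T24 1.96 ± 0.38 higher (adjusted p = 0.0416) and H2-Q2, chosen after its values were seen, 2.31 ± 0.43 higher (adjusted p = 0.0309). H2-M9 went the other way, at 3.26, 5.55, 4.56, 5.91 and 5.75 in BALB/c and 8.07, 7.91, 8.65 and 9.45 in FVB (difference -3.52 ± 0.59, adjusted p = 0.0199). The calls of H2-T23, H2-Q2 and H2-M9 were each lost on omission of any 1 of 6 single glands, and that of H2-T24 on omission of any 1 of 8, with adjusted p of at most 0.145. With the lymphocyte covariate H2-T23 (adjusted p = 0.07), H2-Q2 (0.0846) and H2-M9 (0.0583) were not called. H2-Q4, whose sign changed in 2 other settings given in the closing section, and H2-Q7 overlapped between strains, with differences of 0.21 ± 0.22 and 1.03 ± 0.49 (adjusted p = 0.668 and 0.383). These genes are near copies of one another, and how their reads were shared is uncertain.

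Other genes of the region were called too. In the run from 34305867 to 35397800, 8 of 66 tested genes were called at 2-fold or more, and all 8 were higher in BALB/c. Over all genes 1.27% were called at 2-fold or more. Each run here and below begins and ends at called genes, so its share is raised by construction. Of the 8, H2-Eb1, H2-Ea-ps and H2-Q2 are given above. H2-Q5, which was not on the nonclassical list, was called too and is not described further. The 8 also included Vars, the valine tRNA ligase gene, at 1.75 ± 0.21 (adjusted p = 0.0031 by limma). C4a, a complement C4 paralog also known as the sex-limited protein, was at 2.42 ± 0.38 (adjusted p = 0.0146 by limma). C4a stood at 9.42, 10.44, 10.46, 10.46 and 10.31 in BALB/c and at 8.43, 8.47, 7.29 and 7.01 in FVB. Sapcd1 was at 4.3 ± 0.50 (adjusted p = 0.0026), and its neighbour Msh5, a gene of meiotic recombination, at 3.59 ± 0.60 (adjusted p = 0.0208). In the run from 36005695 to 36642666, 6 of 15 tested genes were called, 5 higher in BALB/c, among them the predicted genes Gm11127 at 5.01 ± 0.56 and Gm10499 at 2.41 ± 0.20. Chromosome 17 held 20 called genes of 778 tested, or 2.57%. Without BALB/c gland 1 the adjusted p of these named genes by limma, H2-Q5 left out, was at most 0.00712 for all but H2-Q2, at 0.0104. Leaving out 1 gland lost the C4a call for 3 glands and the Msh5 call for 4.

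A shorter run at the other end of chromosome 17 joined Dynlt1b, Tmem181b-ps and Dynlt1c, 3 of 4 genes tested there. Dynlt1b, which encodes a light chain of the motor protein dynein (6430112 to 6436296), stood at 12.49, 12.31, 12.49, 11.91 and 11.95 in BALB/c and at 7.80, 7.77, 7.81 and 8.11 in FVB. The glands of each strain lay close together and the strains far apart, with a difference of 4.36 ± 0.19 (adjusted p = 7.49e-06). Tmem181b-ps, like Dynlt1c chosen after its values were seen, was 6.01 ± 0.39 higher in BALB/c (adjusted p = 6.78e-05). Dynlt1c was 2.11 ± 0.38 higher (adjusted p = 0.0286), a call lost on omission of any 1 of 7 glands and of both BALB/c gland 1 and FVB gland 1 (adjusted p = 0.0556). The Dynlt1 genes are near-identical copies, so the sharing of reads between them is uncertain.

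Runs of 4 called genes also lay on chromosome 12, from 20804381 to 21421064, and on chromosome 2, from 176226569 to 176927809. On chromosome 12, 1700030C10Rik was 6.72 ± 0.42 higher in BALB/c (adjusted p = 5.54e-05), Zfp125 3.19 ± 0.33 and 3110053B16Rik 3.09 ± 0.46, and Gm4419 went the other way at -1.57 ± 0.30 (adjusted p = 0.0358). Gm4419 was lost on omission of any 1 of 8 glands, with the lymphocyte covariate (adjusted p = 0.0597) and with a pseudocount of 50, where it was at -0.59 (adjusted p = 0.052). Zfp125 and 3110053B16Rik overlap in the annotation and their reads cannot be told apart. On chromosome 2, Gm14296 (5.26 ± 0.34), 2210418O10Rik (4.08 ± 0.35) and Gm14295 (3.22 ± 0.29) were higher in BALB/c, and Gm14305 was at 5.35 ± 0.96 (adjusted p = 0.028), lost on omission of any 1 of 5 glands. Among all 216 called entries 39 were annotated as pseudogenes, against 700 of the 16438 tested entries. The cause of this was not tested.

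Several single genes separated the strains widely. Zhx2, a transcriptional repressor known for silencing alpha-fetoprotein in the adult liver (chromosome 15, 57694665 to 57839832), was chosen after its values were seen. It stood at 8.55, 8.09, 8.13, 8.14 and 8.11 in BALB/c and at 11.29, 11.32, 11.70 and 11.79 in FVB. The glands of each strain lay close together, and the difference was -3.32 ± 0.20 (adjusted p = 4.06e-05), or -3.41 ± 0.17 without BALB/c gland 1. Gdpd3, which encodes a lysophospholipase D (chromosome 7, 126766334 to 126775649) and was also chosen after its values were seen, stood at 6.69, 6.61, 5.72, 6.05 and 6.01 in BALB/c and at 12.54, 12.75, 12.50 and 12.90 in FVB. Its difference of -6.46 ± 0.25 had the smallest adjusted p among the genes named here, at 4.6e-06.

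Ifi44l and Gvin1, both induced by interferons, were nearly absent from one strain. Ifi44l (chromosome 3, 151758737 to 151762892) stood at 9.29, 7.71, 7.85, 8.15 and 8.05 in BALB/c and at 0, 1.89, 0 and 1.32 in FVB. Among the genes that passed the filter on low values it was the 1 with a mean of at least 5 in one strain and under 2 in every gland of the other, and its difference was 7.41 ± 0.51 (adjusted p = 0.000101). Gvin1, a very large interferon-inducible GTPase gene with close copies (chromosome 7, 106156556 to 106215326), was listed at 0 in BALB/c glands 1 to 4 and at 5.22 in gland 5, and stood at 11.13, 12.30, 12.16 and 13.05 in FVB. Its difference was -11.11 ± 1.07 (adjusted p = 0.000799). Both calls held without any 1 gland, with adjusted p of at most 0.00577.

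The interferon-stimulated list as a whole gave 0 called genes of 22 by limma, with a median of 0.30, or 0.36 without BALB/c gland 1. Of the 18 tested genes of the GBP, IRG and Gvin families, Gvin1 was the member called higher in FVB with all glands. Gbp2b, a guanylate-binding protein gene, was the one called higher in BALB/c. Over all genes 0.578% were called higher in FVB and 0.736% higher in BALB/c. Without BALB/c gland 1, Gbp2 and Gbp10 were called higher in FVB too, which made 3 members against 1.2% of all genes. Gbp2b stood at 11.60, 11.10, 10.35, 11.28 and 11.16 in BALB/c and 8.29, 8.93, 8.27 and 10.03 in FVB. FVB gland 4 came closest to the BALB/c glands without overlap. Its difference was 2.22 ± 0.39 (adjusted p = 0.026), which was lost on omission of any 1 of 6 glands and of both BALB/c gland 1 and FVB gland 1 (adjusted p = 0.064). Mndal, a gene of the interferon-induced Ifi200 cluster chosen after its values were seen, was 3.91 ± 0.60 higher in BALB/c (adjusted p = 0.0141). It was called without BALB/c gland 1 (adjusted p = 0.0043) and was lost without FVB gland 1, 2 or 3. Ifi202b, of the same cluster, overlapped (difference -0.68 ± 0.35, adjusted p = 0.404).

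**Figure D3:**
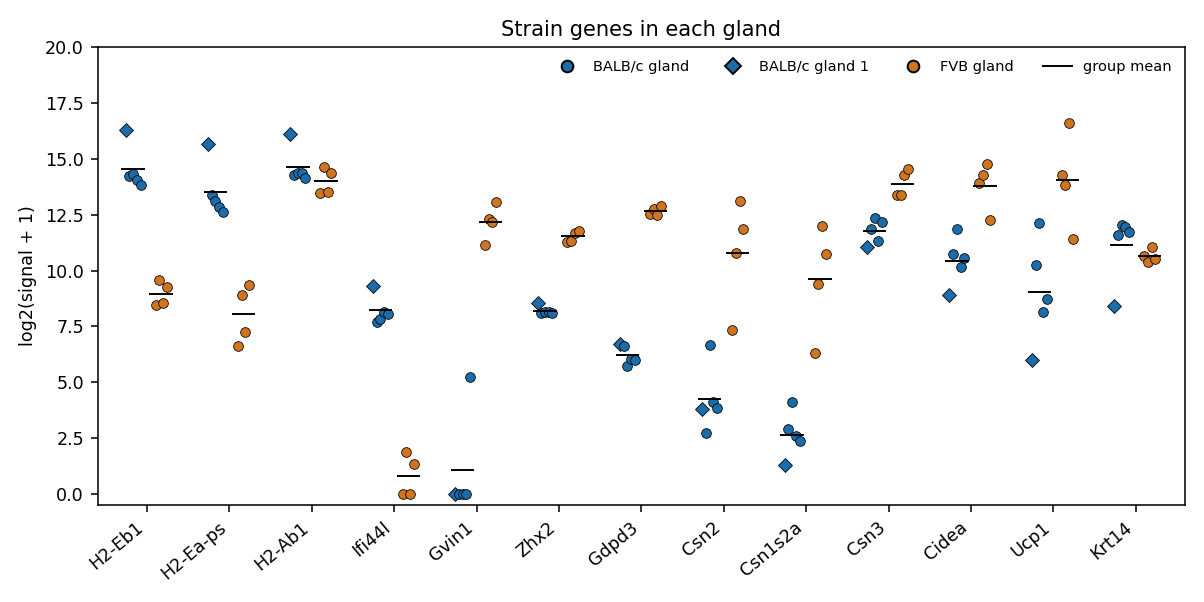
log2(signal + 1) of 13 genes in each gland, BALB/c in blue and FVB in orange, with BALB/c gland 1 as a diamond and a line at each group mean. The strains do not overlap for 10 of the 13, the exceptions being H2-Ab1, Ucp1 and Krt14.

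Of the 9 milk protein genes tested 4 were called, all higher in FVB, against 0.578% of all genes called in that direction. The gene for beta casein, Csn2, stood at 3.79, 2.70, 6.66, 4.12 and 3.85 in BALB/c and at 7.35, 10.78, 13.13 and 11.84 in FVB. Csn1s2a, an alpha casein gene, stood at 1.28, 2.89, 4.12, 2.57 and 2.38 and at 6.32, 9.40, 11.98 and 10.75. FVB gland 1 was the lowest of the FVB glands for both and still lay above every BALB/c gland, while the FVB glands differed widely among themselves. The differences were -6.55 ± 1.13 for Csn2 (adjusted p = 0.0243) and -6.97 ± 1.03 for Csn1s2a (adjusted p = 0.0117).

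Lalba, the alpha-lactalbumin needed for lactose synthesis and chosen after its values were seen, was at -3.62 ± 0.60 (adjusted p = 0.0192), and Csn3, the kappa casein that caps the milk micelle, at -2.14 ± 0.35 (adjusted p = 0.0184). Csn3 stood at 11.07, 11.86, 12.37, 11.31 and 12.16 in BALB/c and at 13.38, 13.36, 14.26 and 14.56 in FVB. The list median was -2.14 against 0.08 for all genes. In the fit without BALB/c gland 1, 5 were called higher in FVB, against 1.2% of all genes, and the median was -1.97 against 0.09. The fifth was Csn1s1, another alpha casein gene, chosen after its values were seen, at -5.63 ± 1.38 (adjusted p = 0.106) with that gland and -4.60 ± 1.06 (adjusted p = 0.0486) without it. Cel, a milk lipase, was called higher in BALB/c without that gland. Wap, whey acidic protein, did not pass the filter on low values, at 0 to 1.61 in BALB/c and 1.59 to 4.10 in FVB.

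Of these calls only that of Csn1s2a held whichever single gland was left out. That of Csn2 was lost on omission of any 1 of 6 glands, that of Lalba on omission of any 1 of 6 and that of Csn3 on omission of any 1 of 4, with adjusted p of at most 0.0816. With the lymphocyte covariate Csn3 was not called (adjusted p = 0.0504). The called casein genes Csn2, Csn1s2a and Csn3 lie together on chromosome 5 between 87692624 and 87932665. All 3 genes tested there were called, but the called genes themselves set these bounds. Csn1s1, just outside at 87666208 to 87682578, was tested and was not called with all glands. The luminal and basal lists had no called member with all glands.

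Casein genes are activated by STAT5 after prolactin signalling, and STAT5 binds the motif TTCNNNGAA. The 250 bases before the RefSeq starts of Csn1s1 and Csn1s2a, alpha casein genes on either side of Csn2, are shown because both were higher in FVB in the comparison without BALB/c gland 1, with any motif in capitals. The window of Csn1s1 is chr5:87665958-87666207 and that of Csn1s2a is chr5:87774200-87774449, both on the plus strand of GRCm38.p6.
Csn1s1: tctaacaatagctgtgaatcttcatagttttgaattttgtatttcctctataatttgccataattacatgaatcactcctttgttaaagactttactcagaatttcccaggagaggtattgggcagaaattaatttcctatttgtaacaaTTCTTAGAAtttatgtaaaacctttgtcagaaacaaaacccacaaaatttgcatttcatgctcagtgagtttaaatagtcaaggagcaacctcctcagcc
Csn1s2a: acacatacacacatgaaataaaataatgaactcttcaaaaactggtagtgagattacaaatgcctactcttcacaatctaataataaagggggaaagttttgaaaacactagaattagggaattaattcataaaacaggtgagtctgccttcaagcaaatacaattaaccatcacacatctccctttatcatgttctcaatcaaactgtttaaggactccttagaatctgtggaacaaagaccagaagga
The Csn1s1 window held 1 copy, which begins 100 bases before the start, and the Csn1s2a window held 0. The window of Csn2, whose sequence is not printed, held 1 copy, which begins 93 bases before the start. Those of Lalba and Wap, also not printed, held 0. The motif, which reads the same on both strands, was present in 7.02% of the 32851 windows.

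Keratin genes of basal cells (Krt5, Krt14 and Krt17) and of luminal cells (Krt8 and Krt19) were called higher in BALB/c without gland 1. They were also called with the library set term, which takes gland 1 out of the difference too and is not a separate check. Krt14, a keratin of basal cells, stood at 8.40, 11.57, 12.06, 11.97 and 11.74 in BALB/c and at 10.64, 10.40, 11.07 and 10.50 in FVB. BALB/c gland 1 was the lowest of all 9 and BALB/c glands 2 to 5 were above every FVB gland, so the difference was 0.50 ± 0.68 (adjusted p = 0.757) with gland 1 and 1.18 ± 0.19 (adjusted p = 0.0103) without it. Krt5, its partner keratin, was at 0.69 ± 0.64 and 1.33 ± 0.20 (adjusted p = 0.638 and 0.0089), and Krt17, chosen like Krt19 after its values were seen, at 0.78 ± 0.81 and 1.58 ± 0.28 (adjusted p = 0.675 and 0.0171).

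In the luminal layer Krt8 was at 0.72 ± 0.53 with gland 1 and 1.20 ± 0.27 without it (adjusted p = 0.542 and 0.0451), and Krt19 at 0.67 ± 0.51 and 1.13 ± 0.25 (adjusted p = 0.562 and 0.0451). Epcam, an adhesion protein of all epithelium, was at 0.10 ± 0.43 and 0.46 ± 0.27 (adjusted p = 0.932 and 0.416). Without gland 1 the basal list had 4 called members of 12 and the luminal list 3 of 12, all higher in BALB/c, against 2.68% of all genes called in that direction, and the list medians were 0.72 and 0.86. When FVB gland 1 was left out as well, an alternative chosen after the data were seen, Krt5 (adjusted p = 0.0302), Krt14 (0.032) and Krt17 (0.0494) were still called and Krt8 (0.116) and Krt19 (0.114) were not.

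Of the 11 brown fat genes tested Cidea and Ppargc1a were called, both higher in FVB. Cidea, a lipid droplet protein abundant in brown fat, stood at 8.90, 10.72, 11.85, 10.15 and 10.54 in BALB/c and at 13.91, 14.27, 14.77 and 12.25 in FVB. The groups did not overlap, and the difference was -3.37 ± 0.62 (adjusted p = 0.0314). Ppargc1a, a coactivator that drives mitochondrial genes, was at -1.95 ± 0.32 (adjusted p = 0.0184). Ucp1, the uncoupling protein that lets brown fat make heat, stood at 5.99, 10.24, 12.15, 8.13 and 8.71 in BALB/c and at 14.29, 13.85, 16.62 and 11.39 in FVB. FVB gland 4 lay below BALB/c gland 3, and the difference of -4.99 ± 1.27 was not called (adjusted p = 0.115). The 2 calls of 11 stood against 0.578% of all genes called higher in FVB, and the same 2 were called without BALB/c gland 1, against 1.2%. The list medians were -1.95 and -1.74, against 0.08 and 0.09 for all genes.

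Of the 14 genes of the adipocyte list, which also holds Cidea, Cidea was the 1 called, and the list median was -0.65 with BALB/c gland 1 and -0.08 without it. Adipoq stood at -0.68 ± 0.59 and -0.16 ± 0.32 (adjusted p = 0.615 and 0.845). The call of Cidea was lost on omission of any 1 of 6 glands, without both BALB/c gland 1 and FVB gland 1 (adjusted p = 0.0552) and with the lymphocyte covariate (adjusted p = 0.0833), and that of Ppargc1a on omission of any 1 of 5.

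The fixed lists of fatty acid synthesis, fatty acid oxidation and cholesterol synthesis had no called member, with or without BALB/c gland 1. Their medians were -0.71, -1.18 and 0.02 with that gland, against 0.08 for all genes. Without it they were -0.20, -0.92 and 0.16, against 0.09. Under the library set term 2 of 13 oxidation genes were called higher in FVB, against 1.98% of all genes. Among single enzymes, Gys2, a glycogen synthase, was at -2.92 ± 0.49 (adjusted p = 0.0206), Ldhb, a lactate dehydrogenase subunit, at -2.24 ± 0.42 (adjusted p = 0.0343) and Pank1, which starts coenzyme A synthesis, at -2.17 ± 0.43 (adjusted p = 0.0422). Acsm3, an acyl-CoA synthetase of mitochondria, was at -2.67 ± 0.50 (adjusted p = 0.0334), and Slc27a2, a fatty acid transporter chosen after its values were seen, at -3.73 ± 0.67 (adjusted p = 0.028). Each of these 5 calls was lost on omission of any 1 of 5 to 7 single glands. With the lymphocyte covariate Ldhb (adjusted p = 0.0756), Pank1 (0.121), Acsm3 (0.103) and Slc27a2 (0.0801) were not called, nor was Ldhb without both BALB/c gland 1 and FVB gland 1 (0.0556). Gys2 and Ldhb lie in 1 run on chromosome 6 with Slco1a6, an organic anion transporter chosen after its values were seen, which was higher in BALB/c at 2.67 ± 0.46 (adjusted p = 0.0247), a call lost on omission of any 1 of 8 glands and with a pseudocount of 50 (adjusted p = 0.0513).

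Hsd11b1, which regenerates active glucocorticoid, stood at 10.92, 11.80, 11.59, 11.61 and 11.87 in BALB/c and at 13.60, 13.26, 13.39 and 12.74 in FVB. Its difference of -1.69 ± 0.24 (adjusted p = 0.00979) held without any 1 gland, as did that of Ntrk3, a neurotrophin receptor, at -1.55 ± 0.21 (adjusted p = 0.0067). Coro2a, an actin-binding protein, was at -1.98 ± 0.29 (adjusted p = 0.0111) and the short coiled-coil gene Scoc at -1.46 ± 0.20 (adjusted p = 0.00851). The ribosomal protein gene Rpl26 was at -1.36 ± 0.18 (adjusted p = 0.00644), but it has near copies in the genome, so the sharing of its reads is uncertain. Cyp2d22, a cytochrome P450, was at -1.14 ± 0.23 (adjusted p = 0.0452), and Aldh3b3, an aldehyde dehydrogenase, at -3.07 ± 0.54 (adjusted p = 0.0268), calls lost on omission of any 1 of 8 and 7 glands. Cyp2d22 was not called with the lymphocyte covariate (adjusted p = 0.109).

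Mup10, Ccl27a, Ccl28, Lypd6, Col4a6 and Fgg were chosen after their values were seen, for their differences toward FVB. Mup10 is one of the major urinary proteins that carry pheromones, and stood at 0, 6.0, 3.73, 3.14 and 4.57 in BALB/c and at 11.40, 11.47, 13.58 and 14.71 in FVB. It was at -9.30 ± 1.15 (adjusted p = 0.00361), 1 of 9 Mup genes tested, and these genes are near-identical copies. The chemokine genes Ccl27a and Ccl28 were at -2.96 ± 0.26 (adjusted p = 0.00039) and -3.28 ± 0.50 (adjusted p = 0.014). Lypd6 was at -4.94 ± 0.65 (adjusted p = 0.00556), Col4a6, a collagen of basement membranes, at -2.99 ± 0.41 (adjusted p = 0.00757) and Fgg, the fibrinogen gamma chain, at -3.28 ± 0.53 (adjusted p = 0.0178). Ccl28 and Fgg were each lost on omission of any 1 of 3 glands.

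Toward BALB/c, the naming rule also took Hjurp, a chaperone of the centromere histone, at 2.60 ± 0.30 (adjusted p = 0.00221), and Tpm3-rs7, a tropomyosin related sequence, at 4.08 ± 0.31 (adjusted p = 0.000153). Tpm3-rs7 stood at 14.45, 13.37, 13.32, 13.63 and 13.49 in BALB/c and at 9.08, 9.29, 9.60 and 10.34 in FVB. It and Rps3a2, at 1.46 ± 0.27 (adjusted p = 0.0329), are copies of other genes and their reads are uncertain. Snhg11, a host of small nucleolar RNAs, was at 2.85 ± 0.50 (adjusted p = 0.0247), Pkp3, a desmosome protein, at 1.20 ± 0.21 (adjusted p = 0.0247) and Thy1, a surface protein of fibroblasts and T cells, at 1.32 ± 0.26 (adjusted p = 0.0423). Mgst2, a microsomal glutathione transferase, was at 1.98 ± 0.31 (adjusted p = 0.0141), Tgm3, a transglutaminase chosen after its values were seen, at 4.19 ± 0.76 (adjusted p = 0.0286), and Ear2, an eosinophil-associated ribonuclease with near copies, at 1.99 ± 0.40 (adjusted p = 0.0491). Of these, Snhg11, Rps3a2, Thy1, Pkp3, Ear2 and Tgm3 were lost on omission of any 1 of 8 glands and Mgst2 on omission of any 1 of 3. With the lymphocyte covariate Rps3a2 (adjusted p = 0.0744) and Thy1 (0.0935) were not called, and with median-of-ratios scaling Thy1 (0.0634) and Ear2 (0.0641) were not.

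No member of the B cell or T cell list was called between the strains. The B cell list had a median difference of 1.80 with 0 of 14 genes called by limma and the T cell list 1.19 with 0 of 17. Ms4a1 stood at 15.16, 12.19, 11.31, 11.75 and 11.32 in BALB/c and at 8.79, 12.44, 10.30 and 12.50 in FVB, so the groups overlapped (difference 1.34 ± 0.97, adjusted p = 0.538). Cr2 was at 1.31 ± 1.00 (adjusted p = 0.558), the T cell receptor component Cd3e at 1.28 ± 0.90 (adjusted p = 0.529) and the follicle chemokine Cxcl13 at 0.85 ± 0.80 (adjusted p = 0.639). Ccl21a did not overlap, at 16.42, 14.11, 14.06, 14.20 and 13.85 against 10.40, 13.52, 11.65 and 13.08, and was not called (2.37 ± 0.71, adjusted p = 0.183). Without BALB/c gland 1 the B and T cell medians were 1.21 and 0.84, again with 0 called.

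A few single genes of immune cells were called. Clec4g, a lectin of sinus endothelium, was at 2.46 ± 0.42 (adjusted p = 0.0236), Iglv1, an antibody lambda chain segment, at 4.35 ± 0.83 (adjusted p = 0.0375), and Klra3, an NK cell receptor, at 2.67 ± 0.43 (adjusted p = 0.0178). Ms4a4b, a T cell membrane protein chosen after its values were seen, stood at 14.12, 12.08, 10.79, 11.69 and 11.29 in BALB/c and at 4.94, 8.25, 6.59 and 8.79 in FVB. It was at 4.85 ± 0.86 (adjusted p = 0.0268) with the T cell list overlapping between strains, and its call was lost on omission of any 1 of 6 glands. Those of Clec4g and Klra3 were lost on omission of any 1 of 5 and that of Iglv1 on omission of any 1 of 8. When BALB/c gland 1 and FVB gland 1, the highest and lowest in lymphocyte markers, were both left out, all 4 were still called (adjusted p of 0.0112 to 0.0492). With a pseudocount of 50, Iglv1 was at 2.56 (adjusted p = 0.104) and Klra3 at 0.87 (adjusted p = 0.108), and neither was called.

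T cell receptor beta variable segments showed a block that was listed at 0 in FVB. A beta chain is assembled from 1 of a row of variable segments (Trbv genes, chromosome 6), and a stretch of this row is known to be deleted in some inbred strains, such as SJL and SWR. The segments were examined after the values were seen, in the fit without a filter on low values, which tested 29398 genes and called 451 of them (1.53%), 255 higher in BALB/c (0.867%), 196 higher in FVB (0.667%) and 443 at 2-fold or more (1.51%). Trbv13-1 stood at 9.65, 7.89, 7.61, 6.83 and 6.53 in BALB/c and Trbv13-2 at 8.90, 7.05, 6.96, 6.84 and 6.39, and both were listed at 0 in all 4 FVB glands. From Trbv12-1 to Trbv17 (41113550 to 41163556), Trbv12-1, Trbv13-1, Trbv12-2, Trbv13-2, Trbv13-3, Trbv14, Trbv15, Trbv16 and Trbv17 were above 0 in at least 4 BALB/c glands and at 0 in every FVB gland.

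Segments on both sides of this block were present in both strains. Trbv5, before it, stood at 8.83, 7.92, 7.43, 7.30 and 7.05 in BALB/c and at 4.97, 7.97, 6.42 and 8.71 in FVB, and Trbv19, after it, at 9.45, 7.87, 7.45, 6.63 and 6.24 and at 5.10, 7.82, 5.30 and 7.86. Of 24 Trbv segments in that fit 7 were called higher in BALB/c and 0 higher in FVB. All 7 were at 0 in every FVB gland and entered the fit through BALB/c alone. Their p-values restate the block and do not test it. Trbv14 was at 6.39 ± 0.45 (adjusted p = 9.74e-05 by limma) and Trbv17 at 5.67 ± 0.45 (adjusted p = 0.000205). Trbv12-1 (adjusted p = 0.148) and Trbv15 (adjusted p = 0.0676) were not called. Toward FVB, Trbv24 was at -4.42 ± 0.95 (adjusted p = 0.054) and Trbv26 at -3.62 ± 0.79 (adjusted p = 0.0594).

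**Figure D4:**
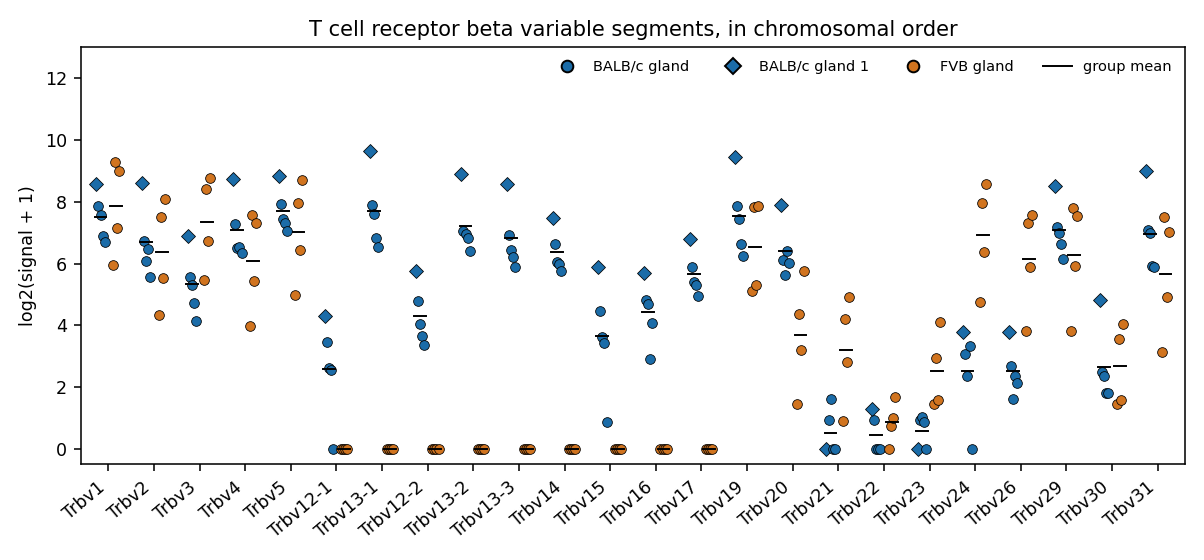
log2(signal + 1) of the T cell receptor beta variable segments above 0 in at least 1 gland, in their order along the chromosome, with BALB/c glands in blue, FVB glands in orange and a line at each group mean. From Trbv12-1 to Trbv17 every FVB gland is at 0, while Trbv5 and Trbv19 on either side are above 0 in all 9 glands.

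Of 34 genes of a fixed panel, which joined known strain genes with markers of cell types, 29 were tested. Of these, 3 were called, H2-Ea-ps, Gvin1 and Csn2, against 1.31% of all genes. Without BALB/c gland 1, 8 were called, against 3.89% of all genes, so calls rose over all genes as well. Hc, the complement C5 gene that is disrupted in FVB, stood at 8.46, 10.87, 9.96, 12.12 and 12.08 in BALB/c and at 7.31, 7.80, 7.02 and 9.98 in FVB. FVB gland 4 lay above BALB/c gland 1, and the difference was 2.67 ± 0.84 (adjusted p = 0.21) with that gland and 3.23 ± 0.70 (adjusted p = 0.0396) without it. The activating NK receptor gene Klra4 (Ly49D) did not pass the filter, at 1.28, 0, 1.02, 0 and 0 in BALB/c and at 5.86, 7.00, 5.47 and 6.76 in FVB, and without the filter it was called at -5.81 ± 0.51 (adjusted p = 0.000297). Ang5, an angiogenin-family ribonuclease, was likewise at 0 to 1.5 in BALB/c and 6.74 to 7.59 in FVB, and was called without the filter (-6.72 ± 0.47, adjusted p = 9.08e-05 by limma). Klra4 and Ang5 were at or near 0 in the BALB/c glands, so these p-values restate the listed values and are no separate support.

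The other strain genes of the panel were not called. Klra8 was at 0 to 1.42 in BALB/c and 1.86 to 4.14 in FVB, and Apoa2 at 0 to 5.65 and 0 to 1.01, both below the filter. The antiviral deaminase gene Apobec3 was at 0.46 ± 0.26 (adjusted p = 0.446), the inflammasome genes Nlrp1b and Naip5 at -0.30 ± 0.31 and 0.54 ± 0.43 (adjusted p = 0.673 and 0.58) and Glo1 at 0.09 ± 0.15 (adjusted p = 0.814). Prkdc, a DNA repair kinase gene with a known coding variant in BALB/c, was at 0.04 ± 0.36 (adjusted p = 0.968) and without BALB/c gland 1 at -0.21 ± 0.28 (adjusted p = 0.76), and the tumour suppressor Cdkn2a at 0.38 ± 0.52 (adjusted p = 0.752). No p53 target, DNA repair, mitosis, circadian, immediate early, heat shock or collagen list had a called member in the fit with all 9 glands, and 37 of 53 lists had none. With 1.31% of all genes called, lists this short would often have none, so this does not show that they are alike. Without BALB/c gland 1 the p53 target list had 1 called member, Gtse1, higher in BALB/c, against 2.68% of all genes.

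The strongest strain genes were also read in 96 untreated end-stage tumours of 13 models, whose labels name no host strain, so these values were not tested. In the 26 tumours of the T11, T11-Apobec, T11-UV, p53-2225L and p53-2336R models, Ifi44l had model medians of 5.61 to 9.0, and Gvin1 had medians of 0 with a highest tumour of 4.58. In the other 8 models, with 70 tumours, Ifi44l medians were 0 to 1.58 and Gvin1 medians 8.64 to 13.02. Gdpd3 medians were 4.86 to 5.77 in the first 5 models and 8.82 to 12.24 in the other 8, and those of Dynlt1b were 12.61 to 13.23 and 8.6 to 11.58. The medians of the first 5 models and the other 8 did not overlap for these 4 genes, but they did not all lie near the glands of one strain. The ILC-Pik3Ca/Cdh1Null median of Dynlt1b, 11.58, was close to the BALB/c glands, and the lowest Gdpd3 medians of the other 8 models, 8.82 in KPB-1A and 9.0 in KPB-1B, lay between the strains. Single tumours crossed too, with a highest Ifi44l value of 6.95 in a C3-TAG tumour. Zhx2 did not part the models, with medians of 9.33 to 10.44 and 9.93 to 11.07, and H2-Eb1 medians overlapped too, at 8.63 to 14.06 and 5.21 to 14.64.

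**Figure D5:**
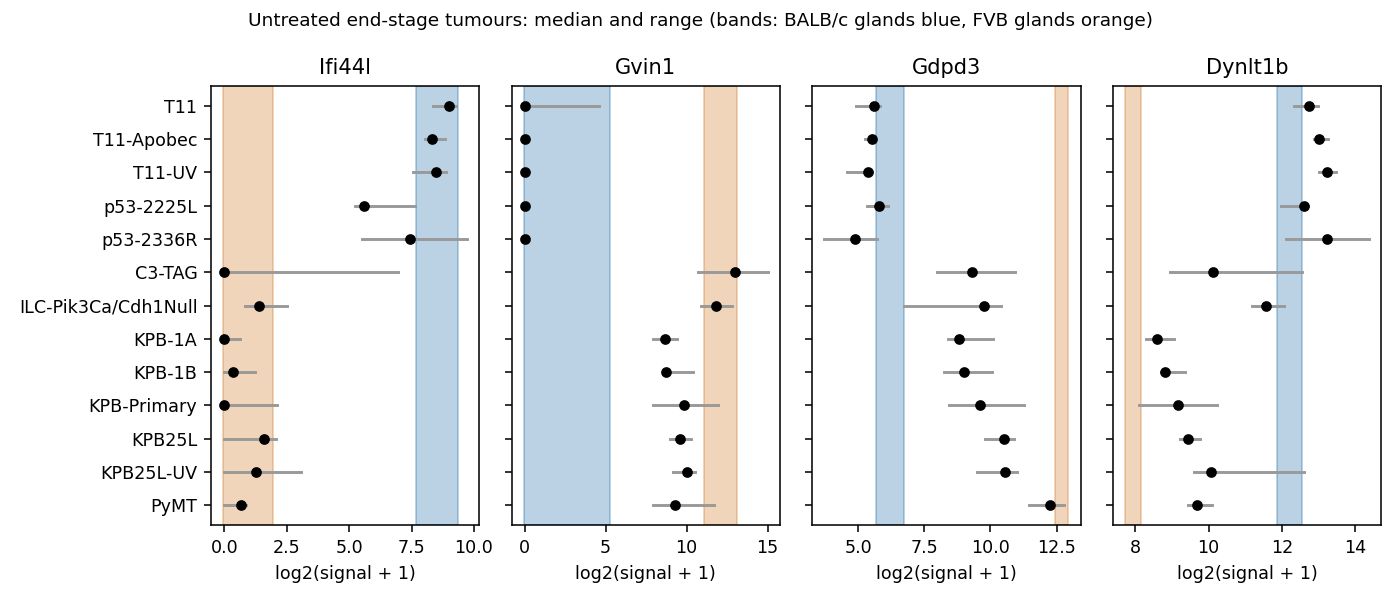
log2(signal + 1) of Ifi44l, Gvin1, Gdpd3 and Dynlt1b in untreated end-stage tumours of 13 models, with the median as a point and the range as a line, and with the range of the BALB/c glands as a blue band and of the FVB glands as an orange band. The T11 and p53 models have Gvin1 medians of 0 and the other 8 models have medians of 8.64 to 13.02.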

How the data were processed

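RNA was read as paired ends on HiSeq instruments after poly(A) selection, per the labels' protocols. The submitters' processing notes name STAR, SAMtools, Picard, Salmon and mm10, without versions. The deposited signal is a gene-level estimate that the authors scaled per library, and each gland's upper quartile of values above 0 was 2049. Only 51.8% to 64.6% of values came out as whole reads at a tolerance of 0.01, so no count test was run. Estimated depth was 39.5 M to 92.6 M reads. Of 264 libraries in the table, 159 were not used here.

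Of the genes above 0 in at least 4 glands, the 66.7% with the highest means entered the test, on log2(signal + 1) with limma 3.58.1 in R 4.3.3, as 2 group means with a trended variance and Benjamini-Hochberg adjustment. The script was tested on simulated data. Positions are from GENCODE (GRCm38) and promoters from RefSeq (GRCm38.p6). The reference is of strain C57BL/6J, and its part in the values was not tested.

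Named genes were the largest called differences above the median level in each direction, the top called members of each list, a fixed panel, near on-off genes and members of runs of called neighbours. Others are marked as chosen after their values were seen, and a few genes are not reported here. The members and lists were chosen with earlier results of these data known. Pseudocount, filter, scaling, library set, covariates and single glands were varied.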

Additional observations from a re-analysis of the deposited data

Results flagged for a closer look

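A gland was picked out where its gap to the nearest other gland of its strain took up more of the strain's range than Dixon's test allows at 95%, which chance does for about 1 in 20 groups. Over 312 groups, from 156 lists and genes in both strains, this happened 64 times, and BALB/c gland 1 was the gland in 52 of them. All values are log2(signal + 1), and no explanation was tested.

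BALB/c gland 1 gave most of these. It was the highest BALB/c gland in its means of the lists for T cell 13.13, B cell 14.58, lymph node stroma and chemokines 11.94, plasma cell 11.05, NK cell and cytotoxicity 9.819, MHC class I classical and loading 14.34, MHC class II 14.7, interferon-stimulated genes 10.21 and mitosis 10.97. It was the lowest in its means of the lists for luminal epithelium 10.43, luminal progenitor and alveolar 10.78, basal and myoepithelium 8.572, adipocyte 12.78, fibroblast 11.95, endothelium 11.1 and Schwann cell and nerve 8.381. Further low list means were macrophage 10.43, mast cell 5.445, complement 10.5, aldehyde and alcohol dehydrogenase 8.492, fatty acid synthesis 12.77, circadian clock 10.21 and collagen 12.01. Among single genes it was the highest for H2-Eb1 16.28, Tpm3-rs7 14.45, H2-T24 12.55, Vars 13.63, Rpl26 13.75, Iglv1 11.13, H2-Ea-ps 15.69 and H2-Ab1 16.11. High single genes also included H2-Q4 14.05, Ms4a1 15.16, Ccl21a 16.42, Ifi44l 9.294, Msh5 11.49 and Zhx2 8.554. The genes lowest in it were Gys2 8.063, Pank1 8.41, C4a 9.42, Epcam 11.29, Krt8 11.81, Krt14 8.399, Krt5 9.386 and Adipoq 13.7. Low single genes also included 3110053B16Rik 5.068, Lypd6 1.278, Col4a6 4.736, Tgm3 5.542, Slco1a6 4.499, Krt17 6.824 and Krt19 12.17.

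The other glands gave 12 cases. They were the epidermis and hair follicle list at 7.15 in FVB gland 3, the highest, the neutrophil list at 6.193 in BALB/c gland 3, the highest and the complement list at 11.26 in FVB gland 3, the lowest. The next were the Ifi200 family list at 9.906 in BALB/c gland 3, the lowest, Dynlt1b at 8.115 in FVB gland 4, the highest and Pkp3 at 9.054 in FVB gland 1, the lowest. Further cases were Gvin1 at 5.225 in BALB/c gland 5, the highest, Ang5 at 1.501 in BALB/c gland 2, the highest and Apoa2 at 1.009 in FVB gland 3, the highest. The last were Glo1 at 12.1 in FVB gland 1, the highest, 3110053B16Rik at 1.678 in FVB gland 3, the lowest and Krt17 at 10.01 in FVB gland 3, the highest.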

How the results depend on the processing

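Of 69 called genes examined one by one, 41 were run under all 22 alternatives and 28, which fell below the stricter filter, under 21. All kept their direction in those that were run, and 31 were called whichever single gland was left out. Outside the pairs of pooledMAMM libraries, 17 were called under every alternative run for them, of which 8 had a value under the stricter filter. Against 216 called genes, of which 208 differed by at least 2-fold, the counts were 451 and 443 without a filter on low values and 70 and 69 with the upper 50% of genes. They were 1083 and 629 with a term for the library set, 55 and 55 in flow cell C9T7VANXX alone, 2755 and 1210 with sample weights and 465 and 374 with an adipocyte covariate. Leaving out BALB/c gland 1 and FVB gland 1, an alternative chosen after seeing the data, gave 369 and 334. The pooledMAMM libraries alone gave 0 and 0 by limma, with 1845 genes at an unadjusted p under 0.05. Leaving out 1 gland gave 86 to 639 and 86 to 494, with the highest counts without BALB/c gland 1 and the lowest without BALB/c gland 2. The cause was not tested.

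Changes of sign were seen in 13 genes, none of them called. With median-of-ratios scaling Prkdc was at -0.081, Glo1 at -0.035 and Epcam at -0.025, and with quantile normalization Prkdc was at -0.018 and Cdkn2a at -0.0061. With the library set term Prkdc was at -0.21, Acta1 at 0.75 and Ckm at 1.36. In flow cell C9T7VANXX alone H2-Q4 was at -0.10, Prkdc at -0.49, Acta1 at 4.33 and Ckm at 5.12. In the pooledMAMM libraries Cdkn2a was at -0.14, Glo1 at -0.040, Cxcl13 at -0.12 and Adipoq at 0.012. With sample weights H2-Q4 was at -0.085, Glo1 at -0.080, Acta1 at 0.60 and Ckm at 1.01. With the lymphocyte covariate Naip5 was at -0.051, Prkdc at -0.33, Cdkn2a at -0.29, Ms4a1 at -0.32, Cd3e at -0.089, Cr2 at -0.37, Cxcl13 at -0.46, Adipoq at 0.081, Acta1 at 0.23 and Ckm at 0.72. With the adipocyte covariate Prkdc was at -0.38, Cxcl13 at -0.028, Adipoq at 0.15, Acta1 at 1.25 and Ckm at 2.03. Without BALB/c gland 1 and FVB gland 1 Prkdc was at -0.26, Cdkn2a at -0.18, Ms4a1 at -0.10, Cd3e at -0.067, Cr2 at -0.21, Cxcl13 at -0.33, Adipoq at 0.11 and Ckm at 0.086. Leaving out 1 gland gave -0.21 to 0.31 for Prkdc, -0.13 to 0.73 for Cdkn2a, -0.12 to 0.46 for Epcam, -2.99 to 0.75 for Acta1 and -3.12 to 1.36 for Ckm.

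No paired analysis was possible because the labels give the glands no replicate numbers, and those used here follow the order of deposition. BALB/c gland 1 was the only gland of its library set, so that set and the gland cannot be told apart. A term for the set therefore takes that gland out of the strain difference. In flow cell C9T7VANXX the BALB/c glands and the FVB glands carried different lane labels, so lane and strain cannot be told apart there. The pooledMAMM glands shared lanes between strains only in part, and the library set term does not adjust for lane. Low genes rest on few reads, and a value of 0 is listed as such.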
